A study of Mus musculus with 6 samples.

Results

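The S100 fused-type proteins were followed here as 7 genes, *Flg* (filaggrin), *Flg2* (filaggrin 2), *Hrnr* (hornerin), *Rptn* (repetin), *Tchh* (trichohyalin), *Tchhl1* (trichohyalin-like 1) and *Crnn* (cornulin). They were taken by family membership from the gene symbols, a rule that used no values, though earlier results of these data were known. All 7 symbols had 1 row each among the 17866 genes of the deposited table. The data were bulk RNA-seq of separated corneal epithelium from 6-month-old C57BL/6 mice, with 3 libraries labelled WT and 3 labelled Rela-/- (KO). In the study the KO mice were *Krt14-Cre; Rela* f/f, so that *Rela*, which encodes the p65 subunit of NF-κB, was deleted in cells that express or had expressed keratin 14. The age-matched controls are given as WT, and whether they carried Cre or a floxed allele is not given in the sources used here. *Krt14-Cre* is active in the corneal and limbal epithelium and also in conjunctiva, meibomian gland, skin and oral mucosa, and a separated epithelium holds whatever cells lie in it. The labels give no sex, litter, extraction day or sequencing lane, so the spread between libraries of 1 genotype may hold technical and biological parts.

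S100 fused-type proteins carry a calcium-binding S100 domain at the amino terminus, followed by a long region built largely of repeats, and their genes lie side by side in the epidermal differentiation complex. They are made late in the differentiation of stratified epithelia. Filaggrin is stored in keratohyalin granules of the epidermal granular layer as a large precursor, is cut into monomers that bundle keratin filaments, and is finally broken down to free amino acids that hold water in the stratum corneum. Hornerin and filaggrin 2 are found in the same upper layers, repetin is cross-linked into the cornified envelope, trichohyalin hardens the inner root sheath of the hair follicle and the filiform papillae of the tongue, and cornulin is abundant in the esophagus. The normal corneal epithelium is not cornified.

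The 7 genes lay on the plus strand of chromosome 3 in the order *Crnn*, *Flg2*, *Flg*, *Hrnr*, *Rptn*, *Tchh* and *Tchhl1*, which in the RefSeq annotation of GRCm38 spans chr3:93144789-93471980, or 327192 bases. The deposited table used the same build for its coordinates. The 250 bases upstream of the RefSeq start were taken for every member (GRCm38.p6), and those of the 4 genes with the largest difference between genotypes are shown here because their start regions could be compared letter by letter. Capitals mark matches to the AP-1 motif TGANTCA and to the TATA box letters TATAAA.
Flg, chr3:93273296-93273545, plus strand: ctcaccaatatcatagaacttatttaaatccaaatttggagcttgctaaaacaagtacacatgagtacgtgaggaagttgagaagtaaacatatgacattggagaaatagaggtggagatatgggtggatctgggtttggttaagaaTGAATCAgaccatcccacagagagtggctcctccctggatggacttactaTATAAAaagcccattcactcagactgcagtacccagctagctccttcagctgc
Hrnr, chr3:93319499-93319748, plus strand: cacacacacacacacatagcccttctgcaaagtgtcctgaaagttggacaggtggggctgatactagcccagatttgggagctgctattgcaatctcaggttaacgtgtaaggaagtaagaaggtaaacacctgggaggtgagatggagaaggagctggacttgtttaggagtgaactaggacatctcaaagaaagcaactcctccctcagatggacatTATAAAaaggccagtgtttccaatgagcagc
Rptn, chr3:93393449-93393698, plus strand: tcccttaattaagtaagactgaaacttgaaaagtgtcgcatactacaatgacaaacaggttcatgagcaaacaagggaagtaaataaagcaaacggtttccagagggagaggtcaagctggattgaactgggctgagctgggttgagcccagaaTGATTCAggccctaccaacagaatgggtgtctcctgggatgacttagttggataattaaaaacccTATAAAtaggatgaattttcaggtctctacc
Crnn, chr3:93144539-93144788, plus strand: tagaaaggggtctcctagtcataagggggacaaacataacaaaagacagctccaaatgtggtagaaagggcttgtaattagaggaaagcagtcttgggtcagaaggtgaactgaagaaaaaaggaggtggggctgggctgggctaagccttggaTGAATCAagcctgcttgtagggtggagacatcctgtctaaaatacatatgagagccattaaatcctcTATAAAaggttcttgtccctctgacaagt

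Motifs were searched on both strands. TATAAA was found in 4 of the 7 windows, those of *Flg*, *Hrnr*, *Rptn* and *Crnn*, against 12.4% of the 32851 mouse promoters searched in the same way. In *Hrnr* and *Rptn* the box began 31 bases before the start, in *Crnn* 29 bases and in *Flg* 53 bases. The AP-1 letters were found in 5 of the 7 windows against 6.75% of all promoters, and the windows of *Hrnr* and *Tchh* were without them. The search left the centre base open, and the share of 6.75% covers every centre base. The matches were TGATTCA in *Rptn* and TGAATCA in the others, so that none held TGACTCA or TGAGTCA. The 30 bases around each AP-1 match are set under each other here, with the motif in capitals, because 2 of these 5 genes, *Flg2* and *Tchhl1*, had almost no reads in any library.
Flg, chr3:93273437-93273466, plus strand: taagaaTGAATCAgaccatcccacagagag
Flg2, chr3:93197198-93197227, plus strand: tagaaaTGAATCAgcccatcccacagaaga
Rptn, chr3:93393597-93393626, plus strand: ccagaaTGATTCAggccctaccaacagaat
Tchhl1, chr3:93468661-93468690, plus strand: tggtgaTGAATCAggtcattacacccagag
Crnn, chr3:93144687-93144716, plus strand: cttggaTGAATCAagcctgcttgtagggtg

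The pattern TGANTCA is its own reverse complement, but the matched letters are not. TGATTCA in *Rptn* is the reverse complement of TGAATCA in the others. The 5 matches began between 69 and 103 bases before the start. Outside the motif, *Flg* and *Flg2* shared 17 of 23 bases, and *Flg2* and *Crnn*, 1 of the 2 pairs with the lowest identity, shared 6 of 23. A κB-type motif, GGNNTTNCC, was in 0 of the 7 windows against 13.5% of all promoters, and the Krüppel-like factor letters CACACCC were in 0 of 7 against 6.93%. With 7 windows, 0 cannot be told apart from either share. The κB pattern was narrow. It matches the putative *Aldh1a1* site as the paper's text writes it. It does not match the predicted sites that the paper lists with its chromatin immunoprecipitation primers. Other κB forms were not searched. The C/EBP letters TTNNGNAA were in 6 of 7 against 36.8%. These matches describe letters in a short window and say nothing about binding. For *Tchh* and *Hrnr* the gene records of the deposited table began 4809 and 13281 bases upstream of the RefSeq start, so that their windows may not be the promoter used by a longer transcript.

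Totals were between 20158404 and 20880347 estimated counts per library. Values are given as estimated counts and as CPM, counts per 1000000 after TMM scaling (trimmed mean of M values, which sets the library totals to a common scale). At this depth, 3 counts, taken as the floor, were 0.137 to 0.152 CPM. *Rela* itself had 1871, 1844 and 1855 counts in WT against 318, 223 and 313 in KO. Of the 7 members, 5 were tested, and *Flg2* and *Tchhl1* did not pass the filter on low counts (at least 0.482 CPM in at least 3 libraries). *Tchh* passed in both genotypes, whereas *Flg*, *Hrnr*, *Rptn* and *Crnn* passed through their KO libraries, so that those 4 could be tested only where they differed, and their number is not used as support.

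*Rptn* was the most abundant member in KO. Its counts were 2, 14 and 5 in WT replicates 1 to 3 and 96454, 32567 and 55728 in KO replicates 1 to 3, with no overlap between genotypes. In CPM this was 0.326 ± 0.290 in WT against 3097 ± 1649 in the KO libraries (mean ± SD, n = 3 each). The log2 fold change was 13.19 with a standard error (SE) of 0.69 (edgeR quasi-likelihood test, adjusted p = 2.33e-06), and 14.17 without WT replicate 2. In bulk tissue such a difference cannot be told apart between more cells of a type and more RNA per cell. By KO mean FPKM, which divides by gene length and so allows genes to be compared, *Rptn* stood at 710 ± 368 and ranked 124th of the 17866 genes.

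*Flg* had 6, 12 and 2 counts in WT against 38492, 5709 and 6826 in KO, and the groups did not overlap. The 3 KO libraries were far apart from each other, with 1949, 286 and 340 CPM. The group values were 0.309 ± 0.234 CPM in WT against 858 ± 945 CPM in the KO libraries (mean ± SD, n = 3), so that the SD in KO exceeded the mean. The log2 fold change was 11.41 (SE 1.14, edgeR adjusted p = 6.26e-05), and it was 9.95 without KO replicate 1 and 12.14 without WT replicate 2.

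For *Hrnr* the WT libraries gave 0, 0 and 1 counts, against 16714, 6834 and 3879 in KO, with no overlap. The KO libraries again spread widely, at 846, 343 and 193 CPM. With a single WT read over 3 libraries, the ratio of KO to WT was 29584 with a 95% exact counting interval from 5309 to 1168530, which covers counting error only. The fitted log2 fold change of 14.38 (SE 1.01, edgeR adjusted p = 1.01e-05) depended on that read and on the prior count. It was 16.22 without WT replicate 3, when all WT counts were 0, and 13.61 without KO replicate 1.

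*Crnn* was the member next in size. It had 15, 11 and 9 counts in WT against 1332, 594 and 347 in KO, with no overlap. In CPM the means were 0.541 ± 0.133 and 38.2 ± 26.1 (SD, n = 3). The log2 fold change was 6.12 (SE 0.60, edgeR adjusted p = 5.80e-05), and 5.42 without KO replicate 1.

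*Tchh* stood apart from those 4 genes in level and spread as described here, without a test of that difference. It was detected in WT, with 58, 58 and 147 counts, and rose to 195, 208 and 215 in the KO libraries, where the 3 libraries lay within a factor of 1.08. The means were 4.10 ± 2.47 CPM in WT against 10.3 ± 0.43 CPM in KO (SD, n = 3), and the highest WT library, at 6.96 CPM, stayed under the lowest KO library, at 9.87 CPM. The log2 fold change of 1.33 (SE 0.35, edgeR adjusted p = 0.0094) passed an adjusted p of 0.05 but not the study threshold, which asks for an adjusted p no higher than 0.001 and a change of 2-fold or more. It passed that threshold in 2 alternatives, DESeq2 on all 6 libraries (1.34, adjusted p = 3.99e-04) and the same edgeR test without WT replicate 3 (1.96, adjusted p = 1.06e-04).

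*Flg2* had 0 counts in all 3 WT libraries and 18, 7 and 5 in KO. Against the floor of 3 counts per library, its KO mean of 0.504 ± 0.357 CPM (SD, n = 3) was at least 3.61-fold higher. The gene was thus detected in all KO libraries, but at 0.06 FPKM on average, against 59.0 FPKM for *Flg*. *Tchhl1* had 3, 0 and 0 counts in WT against 1, 1 and 3 in KO, at or under the floor in all 6 libraries, and no fold is given.

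**Figure D1:**
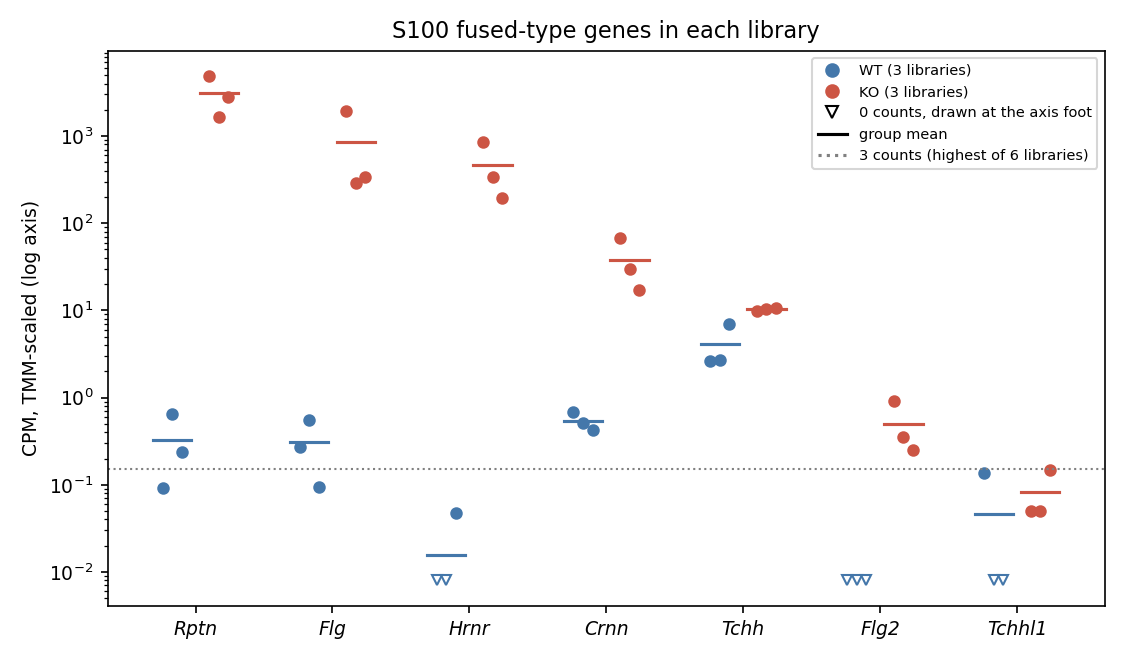
CPM of the 7 S100 fused-type genes on a log axis, with 1 point per library, group means as bars, libraries at 0 counts as open triangles at the foot, and the highest floor of 3 counts as a dotted line. *Rptn*, *Flg*, *Hrnr* and *Crnn* in KO stand far above WT, *Tchh* differs by a small step, *Flg2* is present at low counts in KO, and *Tchhl1* is at or under 3 counts throughout.

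All 5 tested members were higher in KO. Of the 13305 genes tested in all, 31.8% were called higher and 30.2% lower at an adjusted p of 0.05, and 34.7% had KO values that all lay above WT. At the study threshold 4 members were called higher, against 11.6% of tested genes. These shares are the background of a comparison in which 62.0% of all genes were called in either direction.

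Per length, the order of the KO means was *Rptn* (710 ± 368 FPKM), *Flg* (59.0 ± 64.3), *Hrnr* (44.1 ± 32.0), *Crnn* (22.6 ± 15.2), *Tchh* (1.69 ± 0.09), *Flg2* (0.060 ± 0.044) and *Tchhl1* (0.037 ± 0.029), all mean ± SD of 3 libraries. *Rptn* led in each library, at 8.32, 18.9 and 27.1 times the FPKM of *Flg*. *Flg* and *Hrnr* did not keep an order, because their FPKM ratio was 1.67, 0.601 and 1.27 in KO replicates 1 to 3. *Crnn* lay under both in each KO library, and *Flg2* and *Tchhl1* were not separated.

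In WT the summed FPKM of the family was between 1.00 and 1.54. In KO it was 1363, 459 and 690. The family took 0.000405% to 0.000786% of all counts of a WT library and 0.739%, 0.228% and 0.321% of those of the KO libraries. The makeup of this sum differed between genotypes. *Tchh* gave 46.2% to 77.9% and *Crnn* 17.5% to 43.3% of it in WT, and *Rptn* gave 81.3%, 83.9% and 92.2% in KO.

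**Figure D2:**
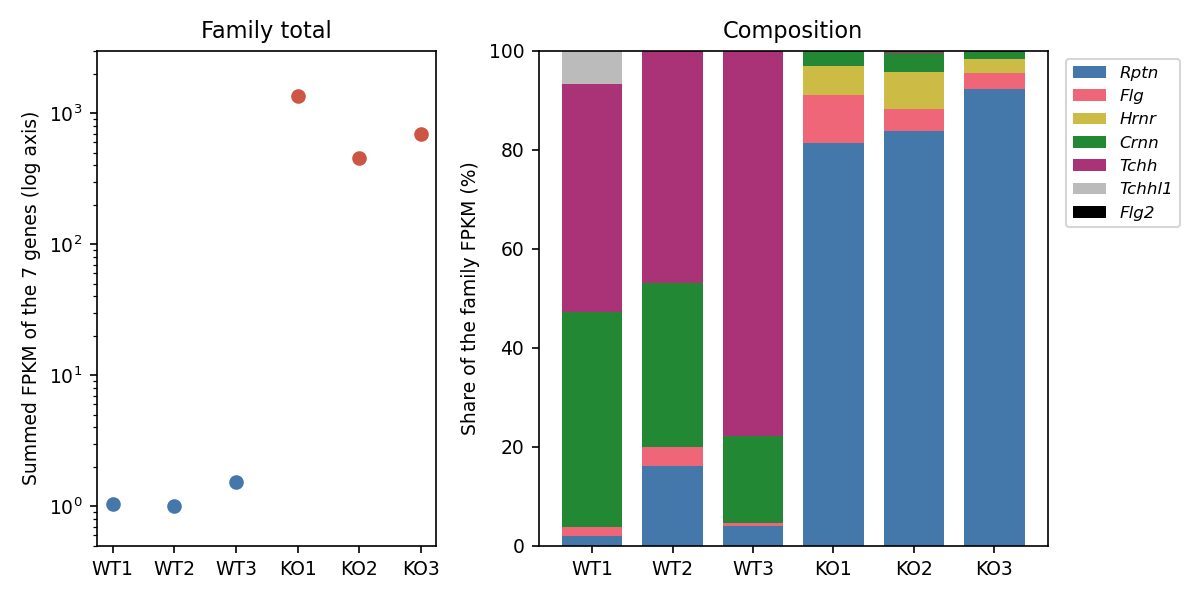
Summed FPKM of the 7 genes per library on a log axis (left) and the share of each gene in that sum in percent (right). The WT sums lie between 1.00 and 1.54 FPKM and consist mostly of *Tchh* and *Crnn*, whereas the KO sums lie between 459 and 1363 FPKM and consist mostly of *Rptn*.

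The KO libraries did not agree on the size of the rise. KO replicate 1 was the highest for *Flg*, *Flg2*, *Hrnr*, *Rptn* and *Crnn*. The highest KO library exceeded the lowest 6.81-fold for *Flg*, 4.38-fold for *Hrnr*, 3.90-fold for *Crnn* and 2.99-fold for *Rptn*, but 1.08-fold for *Tchh*. Among the 12419 tested genes with a KO mean of at least 1 CPM the median of this ratio was 1.24 and the 95th percentile 2.01, and KO replicate 1 was the highest library for 34.9% of them. The lowest library was KO replicate 3 for *Hrnr* and *Crnn* and KO replicate 2 for *Flg* and *Rptn*, so the libraries could not be ordered in 1 way over the family.

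Some partners of filaggrin in the upper epidermis spread in the same manner and others did not. *Krt1*, a keratin of suprabasal epidermis, differed 3.72-fold between its highest and lowest KO library, *Lor*, the main cornified envelope protein loricrin, 3.53-fold, and *Kprp*, a keratinocyte proline-rich protein, 4.07-fold, each with KO replicate 1 the highest. *Krt10*, which pairs with *Krt1* in filaments, differed 1.19-fold. *Krtdap*, a secreted protein of differentiating keratinocytes, differed 1.22-fold, and *Casp14*, a protease of terminal differentiation, 1.12-fold.

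**Figure D3:**
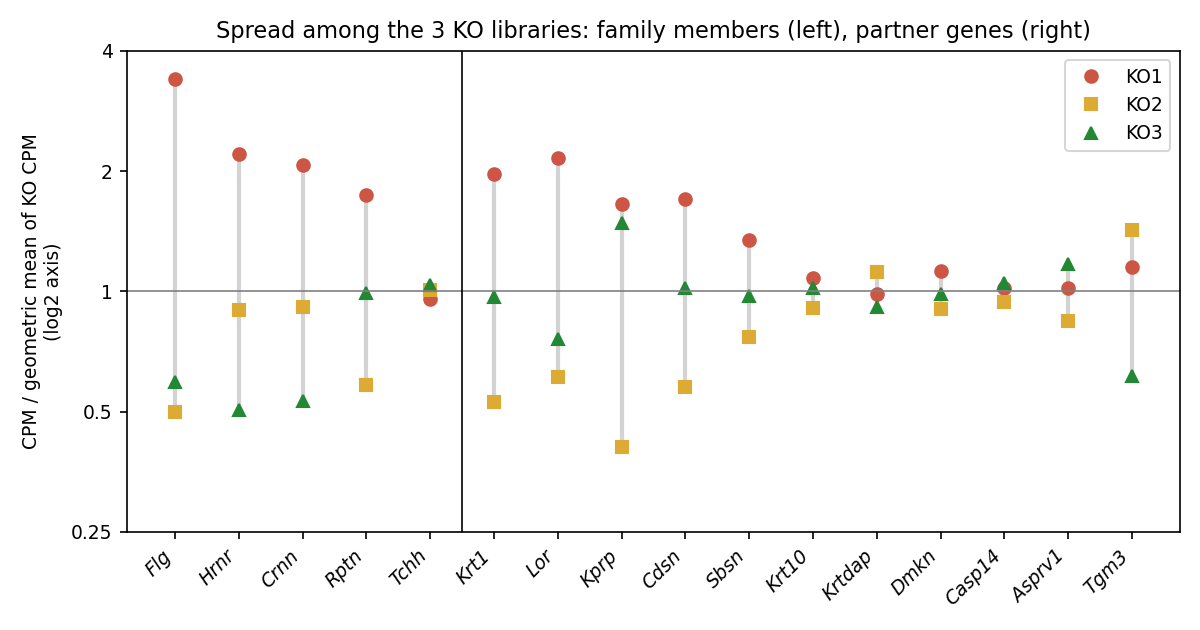
CPM of each KO library divided by the geometric mean of the 3 KO libraries, on a log2 axis, for 5 tested family members (left of the line) and 11 partner genes (right), with grey bars from lowest to highest. *Flg*, *Hrnr*, *Crnn* and *Rptn* are widely spread with KO replicate 1 on top, whereas *Tchh*, *Krt10*, *Krtdap* and *Casp14* lie close to 1.

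For each tested member the 5 genes with the most similar values were found by Euclidean distance of log2(CPM + 1), centred over the 6 libraries. This measure follows both the size of the genotype difference and the spread within genotypes. The genes nearest to *Flg* were *Hrnr*, *Krt1*, *Klk14*, *Lor* and *Serpinb3b*. *Hrnr* was nearest to *Serpinb3b*, *Defb4*, *Flg*, *Mt4* and *Them5*. Only these 2 members named each other among their first 5, at a distance of 1.18. *Rptn* was nearest to the small proline-rich envelope genes *Sprr3* and *Sprr1b*, then to *Krtdap*, *Lor* and *Klk13*, with *Flg* at rank 17. *Crnn* was nearest to *Serpinb3d*, *Slc16a14*, *Rnase1*, *Smpd3* and *Nmu*, and *Tchh* to *Trpm6*, *Tspan12*, *Casp14*, *Pir* and *Serpinb6b*. From *Tchh* the other members were among the most distant of all tested genes, at ranks of 13002 and beyond.

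The genes that cut, modify and break down filaggrin divided into those that rose and those that did not (19 tested, 9 higher, 3 lower and 7 not called, median log2 fold change 0.72, against 0.01 over all tested genes). Over all tested genes 31.8% were called higher and 30.2% lower. Of the 9 higher genes, 3, the kallikreins, reached the filter only through KO. The kallikreins *Klk5*, *Klk7* and *Klk14*, serine proteases of the stratum corneum, were at most at 0, 2 and 30.2 counts in a WT library. *Klk7* had 1, 1 and 2 counts in WT against 1605, 804 and 1688 in KO (log2 fold change 9.98, SE 0.49, edgeR adjusted p = 1.90e-06). *Klk14* differed by 10.20 on the log2 scale (SE 0.53), and *Klk5*, with 60, 23 and 70 counts in KO and none in WT, was at least 18.3-fold higher against the floor of 3 counts per library.

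*Tgm3*, a transglutaminase that cross-links trichohyalin and envelope proteins, had 10.2, 32.6 and 16.2 counts in WT against 31163, 38907 and 16885 in KO (log2 fold change 10.63, SE 0.52, edgeR adjusted p = 1.79e-06). *Tgm1*, which builds the cornified envelope, rose by 2.03 on the log2 scale (SE 0.18), the scale of all rises and falls given here, from 1773, 1661 and 1730 counts to 7736, 4741 and 7105. *Spink5*, which encodes the kallikrein inhibitor LEKTI, rose by 2.71 (SE 0.36). Among enzymes of the last steps, *Blmh*, bleomycin hydrolase, rose by 2.58 (SE 0.14) and *Casp14* by 1.18 (SE 0.19), with edgeR adjusted p of 3.04e-06 and 7.38e-04.

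*Asprv1*, the aspartic protease that cuts filaggrin linkers, was at high counts in both genotypes, 80910, 70927 and 101647 in WT against 83485, 69583 and 97343 in KO, and the groups overlapped (log2 fold change 0.09, SE 0.18, edgeR adjusted p = 0.691). The peptidylarginine deiminases, which convert arginine of filaggrin and trichohyalin to citrulline, had no gene called higher among 4. *Padi1*, *Padi2* and *Padi3* had log2 fold changes of 0.70 (SE 0.73), -0.28 (SE 0.42) and 0.72 (SE 0.84), with overlapping groups and none called. The sign of *Padi2* turned to 0.14 without WT replicate 1 and that of *Padi3* to -0.47 without KO replicate 2. *Padi4* fell by 2.61 (SE 0.19, edgeR adjusted p = 1.32e-05). The calpain *Capn1* and the membrane protease matriptase, *St14*, fell by 1.32 (SE 0.12) and 0.54 (SE 0.13). *Hal*, histidase, which acts on the histidine set free from filaggrin, had 122, 101 and 242 counts in WT against 133, 62 and 114 in KO (log2 fold change -0.48, SE 0.38, edgeR adjusted p = 0.300).

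Of 14 cornified envelope and keratin partners, 12 were tested, with 9 higher, 3 lower and a median log2 fold change of 7.43. The shares over all tested genes were 31.8% higher and 30.2% lower. Of the 9 higher genes, *Lor*, *Krtdap* and *Dmkn* reached the filter only through KO, as did *Fosl1* among the regulators described next. The largest differences were those of *Krtdap* (13.90, SE 0.37), *Lor* (11.09, SE 0.83), the secreted keratinocyte protein gene *Dmkn* (10.36, SE 0.55) and *Krt10* (9.67, SE 0.24). *Kprp* had the smallest of the rises, 4.47 (SE 0.53). The 3 lower genes encode early envelope scaffold proteins, *Evpl* for envoplakin (-1.17, SE 0.19), *Ppl* for periplakin (-0.61, SE 0.15) and *Ivl* for involucrin (-0.60, SE 0.21, edgeR adjusted p = 0.0333). The call of *Ivl* was lost without WT replicate 2 or 3 or KO replicate 2 and with the replicate block, with an adjusted p of 0.0638 to 0.106. *Krt2*, a keratin of the upper epidermis, had 0, 0 and 0 counts in WT against 3, 1 and 2 in KO and was not tested.

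Of 25 regulators of late keratinocyte differentiation, 23 were tested, with 9 higher, 3 lower and 11 not called, and a median log2 fold change of 0.11. The background over all tested genes was 31.8% higher and 30.2% lower. *Fosl1*, an AP-1 subunit, had 1.10, 1.14 and 0 counts in WT against 120, 40.5 and 243 in KO (log2 fold change 7.51, SE 0.98, edgeR adjusted p = 2.55e-04). On rounded counts this is a ratio of 217, with an exact 95% counting interval of 59.8 to 1801. *Maf*, a basic leucine zipper factor, rose by 6.54 (SE 0.25), *Ovol1*, a zinc finger factor, by 1.64 (SE 0.23) and *Cebpb*, a C/EBP factor, by 1.56 (SE 0.19). *Ppara*, a nuclear receptor for fatty acids, fell by 2.17 (SE 0.24), and *Fosl2*, another AP-1 subunit, by 1.04 (SE 0.11). *Fos* and *Klf4* had log2 fold changes of -0.36 (SE 0.31) and -0.32 (SE 0.16) and were not called (edgeR adjusted p = 0.342 and 0.113). *Klf4* was called lower without KO replicate 1, with library totals only and with limma on FPKM, with adjusted p between 0.0227 and 0.0342.

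**Figure D4:**
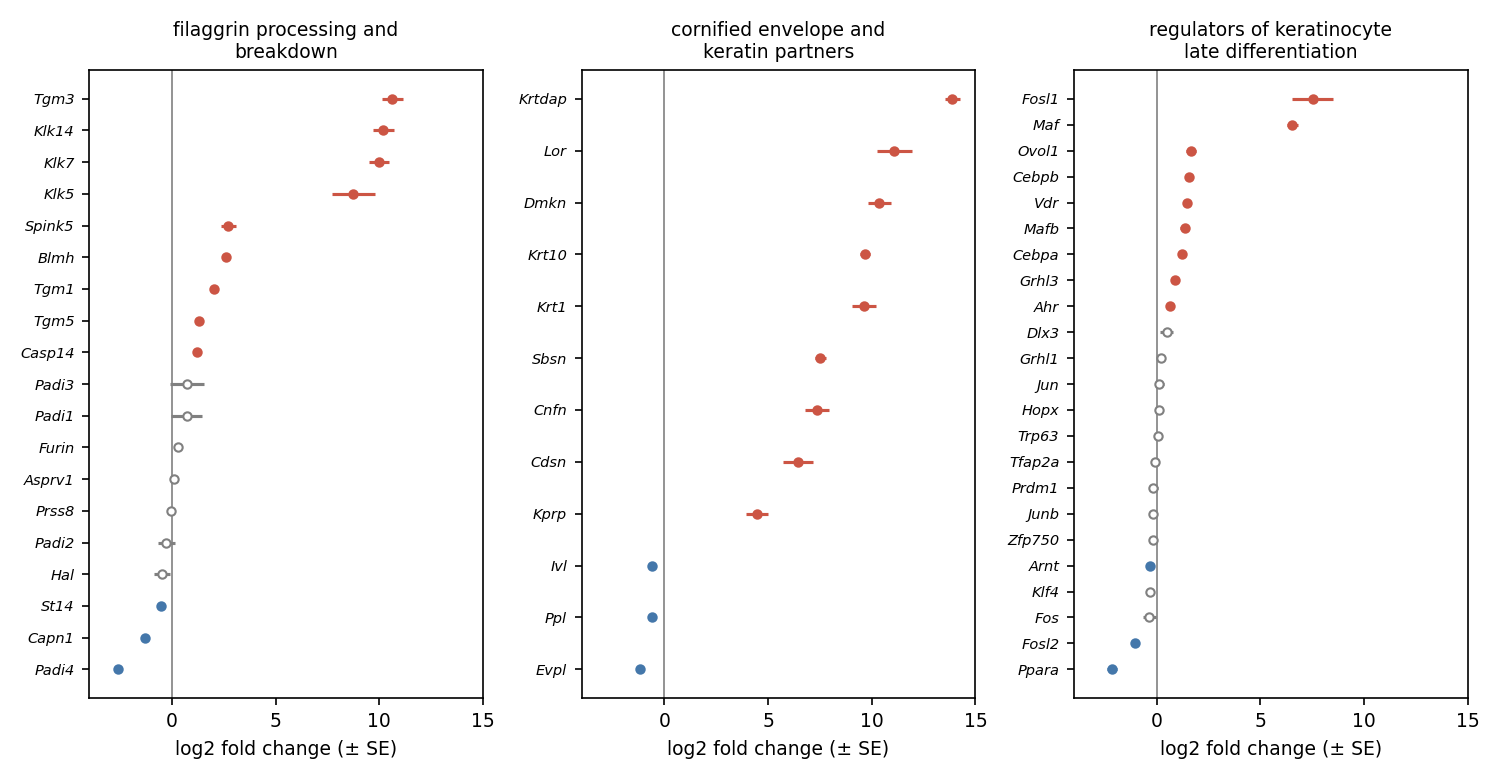
Log2 fold change, KO over WT, with its SE for the tested genes of the 3 gene lists, with filled red points for genes called higher, filled blue for lower and open grey for not called (edgeR, adjusted p of 0.05). The processing and regulator lists hold large rises, such as *Tgm3* and *Fosl1*, and genes near 0, such as *Asprv1*. Each also holds 3 genes called lower, such as *Padi4* and *Ppara*. Of 12 envelope and keratin partners 9 are higher and 3 lower, against 31.8% higher and 30.2% lower over all tested genes.

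The neighbours of the family on the chromosome were read from the table to 500 kb on either side. It held 30 other genes there, of which 23 were tested, 21 were higher, 0 were lower and 2 were not called, against 31.8% called higher among all tested genes. Of the 21 higher neighbours, 18 reached the filter on low counts only through their KO libraries, so these counts were largely set by the filter and are not used as support. The 19 tested *Lce* genes, which encode late cornified envelope proteins and lie on the *Crnn* side, had fitted log2 fold changes from 5.45 for *Lce3a* to 12.68 for *Lce3d*, and *Lce3a* was the 1 among them that passed the filter on its WT counts. Of these 19 genes, 12 had 0 counts in every WT library, and against the floor of 3 counts per library their KO means were at least 18.1-fold to at least 283-fold higher. The *Lce* estimates were partly fractional, as RSEM gives them where reads match several genes, so single *Lce* values are uncertain. *Crct1*, a cysteine-rich gene that lies among the *Lce* genes, rose by 8.80 on the log2 scale from 14, 16 and 22 counts to 7795, 4089 and 9771. All 21 higher neighbours had their lowest KO value in KO replicate 2, which was also the lowest library for *Flg* and *Rptn*.

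On the other side, beyond *Tchhl1*, lay 2 tested S100 genes without a fused repeat domain, and neither was called. *S100a11* had 20502, 25425 and 24325 counts in WT against 23681, 26791 and 30027 in KO (log2 fold change 0.30, edgeR adjusted p = 0.0836). *S100a10* had 7624, 8417 and 11267 in WT against 7261, 9362 and 11001 in KO (log2 fold change 0.12, edgeR adjusted p = 0.608). *S100a11* was called higher by DESeq2 and with the replicate block. Along the chromosome *Flg2*, near the floor, lay between *Crnn* and *Flg*, and the neighbours *Rptn* and *Tchh* had log2 fold changes of 13.19 and 1.33.

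**Figure D5:**
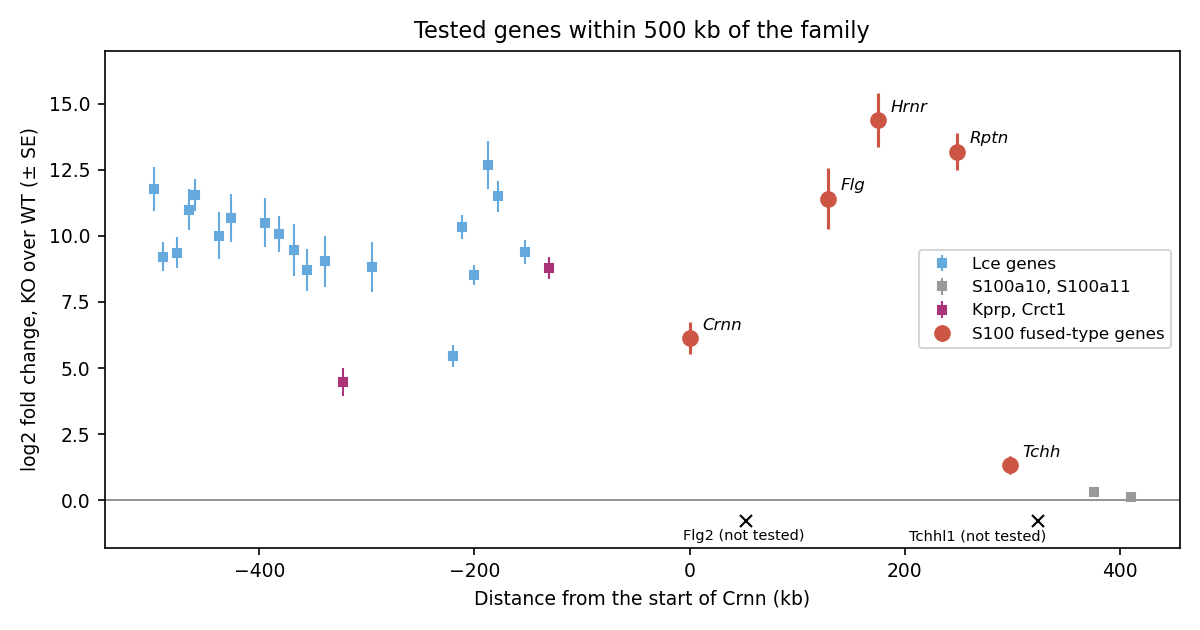
Log2 fold change, KO over WT, with its SE, against the distance in kb from the start of *Crnn* for the tested members (red, at their RefSeq starts) and other tested genes within 500 kb (squares, at the starts of the deposited table). The *Lce* genes lie between 5.45 and 12.68, *Hrnr* and *Rptn* stand at 14.38 and 13.19, *Tchh*, *S100a11* and *S100a10* lie at 1.33, 0.30 and 0.12, and crosses mark *Flg2* and *Tchhl1*, which were not tested.

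The repeats of these genes bear on how their reads could be counted. In the longest GENCODE M21 transcript of *Flg*, 79.2% of all windows of 50 bases occurred more than once in the same transcript. The most common distance between successive copies of a window was 750 bases. The share was 69.1% in *Hrnr* and 65.3% in *Flg2*, with most common distances of 1044 and 234 bases. In *Tchh* the share was 10.1%, in *Rptn* 5.49% and in *Tchhl1* and *Crnn* 0%. The window with the most copies is given for *Flg*, with 17 copies, and for *Hrnr*, with 16, as examples of a repeat unit to which a short read cannot be assigned a single place.
Flg repeat window: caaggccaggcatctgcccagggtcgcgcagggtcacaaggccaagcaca
Hrnr repeat window: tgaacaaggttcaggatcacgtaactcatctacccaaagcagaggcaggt

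No window of any member occurred in a transcript of another gene, on either strand, so at this length the repeats were ambiguous within a gene and not between annotated genes. The estimated counts of all 7 members were whole numbers in all 6 libraries (tolerance 0.001). In the table the record of *Hrnr* ran from 93306468 to 93465359 and so enclosed *Rptn* and *Tchh*, whereas RefSeq places it at chr3:93319749-93333572, and which transcripts the authors counted to *Hrnr* is not given in the sources used here. The length implied by counts and FPKM was 13922 bases for *Flg*, 10081 for *Hrnr* and 4192 for *Rptn*. For *Flg2* it was 7888 bases, from few counts and a rounded FPKM, whereas its longest GENCODE transcript has 20803 bases. The *Flg2* counts may thus leave out part of that transcript. The longest GENCODE transcripts of *Flg* and *Flg2* are listed without a coding sequence.

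Markers of the labelled tissue and of other cell types moved with genotype. All 5 corneal epithelial markers (*Krt12*, *Pax6*, *Aldh3a1*, *Tkt* and *Krt5*) were lower in KO, and their summed level was 91395 to 94756 CPM in WT against 21182 to 23768 CPM in KO. Of 7 conjunctival and goblet cell markers, 6 were higher, with a sum of 1941 to 2971 CPM in WT against 52336 to 66962 CPM in KO. That KO sum was mostly *Krt13* and *Krt4*, at 38229 and 21734 CPM on average. *Krt8*, the marker that was not called, was lower in KO, at 11.3 CPM in WT against 6.02 CPM on average (log2 fold change -0.91, edgeR adjusted p = 0.0612). The goblet cell mucin *Muc5ac* had 0, 0 and 0 counts in WT against 141, 15 and 214 in KO. All 5 tested stromal markers of 6 were higher, with a sum of 0.778 to 2.93 CPM in WT against 16.8 to 30.3 CPM in KO. Of these, *Col1a1*, *Col1a2*, *Dcn* and *Thy1* reached the filter on low counts only through KO, as did *Muc5ac* and *Muc5b*. Those calls were largely set by the filter and are not used as support. Among all tested genes 31.8% were called higher and 30.2% lower. Of 6 leukocyte markers 5 were tested, with 3 higher, 1 lower and 1 not called (sum 266 to 336 CPM in WT against 183 to 259 CPM in KO). That sum was mostly *Itgam*, an integrin of myeloid cells, which fell from 265 to 175 CPM on average. The 3 higher genes were low in WT, with *Ptprc*, the pan-leukocyte antigen, at 0.402 CPM in WT against 5.27 in KO, the macrophage gene *Adgre1* at 0.031 against 1.77 and *Lyz2*, a lysozyme of myeloid cells, at 0.063 against 9.39, all group means of 3 libraries. These 3 genes also reached the filter only through KO. Of 5 melanocyte markers 3 were tested and 2 were lower (sum 7.51 to 9.70 and 5.32 to 5.36 CPM). The part of these shifts in the levels of the S100 fused-type genes was not tested.

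Trichohyalin is best known from the hair follicle, so hair keratins were read beside *Tchh*. None of the 7 inner root sheath keratins in the table was tested, and their summed level was 0.366 to 0.379 CPM in WT against 0.551 to 0.911 CPM in KO, with no single gene above 7.53 counts in any library. The 6 hair shaft keratins summed to 0.372 to 0.615 CPM in WT against 0.602 to 0.709 CPM in KO. The keratins of both parts of the hair were at a few counts, and *Krt74*, *Krt81* and *Krt85* were not analysed. *Tchh* stood at 195 to 215 counts in KO. The part of hair follicle cells in the *Tchh* values was not tested. Of the sebaceous and meibomian markers, *Awat1* was at 0 to 1 counts and *Awat2* rose by 1.30 (7, 5 and 7 counts in WT against 14.0, 15 and 15 in KO, edgeR adjusted p = 0.00962). *Awat2* reached the filter only through KO, and its part in the *Tchh* values was not tested.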

How the data were processed

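RNA-seq of 6 corneal epithelium libraries was read from 1 deposited table. The authors aligned reads with Bowtie2 2.2.5 and estimated levels with RSEM 1.2.12 (the submitters' processing notes), which shares reads among genes. The table holds the deposited expected counts, with none of the 18 per-library columns left unmapped, the deposited FPKM values (divided by gene length and sequencing total) and deposited TPM values, which served only to check the scale. The labels name mm9, whereas the table's coordinates are GRCm38. They name an Illumina kit, whereas the study's methods name a BGI instrument. Whether the counting used strand is not given in the sources used here. Columns with the authors' own fold changes and adjusted p-values were not used.

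The estimated counts were rounded, and edgeR 4.0.16 (R 4.3.3) fitted genotype alone by glmQLFit and glmQLFTest after TMM scaling and filterByExpr. P-values of the 13305 tested genes were adjusted together by the Benjamini-Hochberg method. SE was derived from the F statistic, as the size of the log2 fold change over the root of F. Groups came from titles and genotype labels. The spread measured is that between these samples. Alternatives used DESeq2 1.42.0, limma 3.58.1 on log2(FPKM + 1) and log2(FPKM + 0.1), other scaling, filters and dispersion, a replicate block, and each library left out. On simulated counts of 13144 genes, edgeR found 98% of the 4-fold changes and 76% of the 2-fold changes that had been put in. The simulation gave every gene the same dispersion, the spread beyond counting error. It changed only a small part of the genes, by 4-fold at most, whereas 62.0% of tested genes were called in the data. Near-zero WT counts with large rises were not simulated. In the data the tested members lay at the 94.5th to 99.5th percentile of dispersion, so these shares need not hold for them. Members, gene lists and tests were chosen with earlier results of these data known. The genes named were the members, the 4 lowest and 4 highest tested genes of each list, further list genes, the 5 nearest genes of each member, *Rela*, and, chosen after their values were seen, neighbours on the chromosome and genes whose spread is given. *Krt74*, *Krt81*, *Krt85*, *Elovl3* and *Mc5r* were not analysed here. Sequences came from RefSeq (GRCm38.p6, all 7 members matched) and GENCODE M21. The interval of a ratio is an exact 95% interval. Intervals and floors cover counting error only. Tables and plots were made with Python 3.11.15, pandas 2.3.3, numpy 2.4.6, scipy 1.17.1 and matplotlib 3.10.9.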

Additional observations from a re-analysis of the deposited data

How the results depend on the processing

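The 5 tested members were higher at an adjusted p of 0.05 in all 15 alternatives run. The smallest log2 fold changes, for all 5, came from limma on log2(FPKM + 1): 5.33 for *Flg*, 5.25 for *Hrnr*, 9.23 for *Rptn*, 3.93 for *Crnn* and 0.68 for *Tchh*, where the pseudocount shrinks low values. With each library left out in turn they ranged from 9.95 to 12.14, 13.61 to 16.22, 12.70 to 14.17, 5.42 to 6.47 and 1.10 to 1.96 in the same order, and *Rptn* reached 14.17 without WT replicate 2. Without the filter on low counts *Flg2* was also called (6.39, edgeR adjusted p = 0.00669), though the size is set by WT zeros, and *Tchhl1* was not (0.76, adjusted p = 0.636). At the study threshold, 3 to 5 members were called, against 4, and *Flg* was not among them with robust dispersion (adjusted p = 0.00226). Total genes called were 7099 to 8714, against 8252. Scaling by library totals only moved the median log2 fold change of all tested genes from 0.01 to -0.09 and the calls from 4231 higher and 4021 lower to 3706 higher and 4632 lower.

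The lower calls among regulators, 3, became 5 with library totals only and with either limma setting, and were 2 to 5 with a library left out. The sign of 5 genes that were not called turned in at least 1 alternative. *Asprv1* was -0.0055 with library totals only and -0.0052 with either limma setting. With a library left out, *Asprv1* ranged from -0.030 to 0.27, *Hal* from -0.72 to 0.022, *Padi2* from -0.63 to 0.14, *Padi3* from -0.47 to 1.21 and *S100a10* from -0.021 to 0.33.

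The labels do not say whether a replicate number links a WT library to a KO library. Deviations of same-numbered libraries correlated at 0.03, -0.01 and 0.06, and 1 of 6 libraries correlated best with its own number. With 3 libraries per genotype, these values cannot decide whether the numbers pair the samples. With the replicate block 8082 genes were called, and the log2 fold changes were 11.22 for *Flg*, 14.38 for *Hrnr*, 13.08 for *Rptn*, 1.45 for *Tchh* and 6.05 for *Crnn*. Depth limits *Flg2*, *Tchhl1* and the WT levels of *Hrnr*, which rest on few counts.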
